A study of Mus musculus with 82 samples.

Results

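The genes of the DNA methylation machinery of the mouse were taken as 8 members of the 24746 RefSeq genes counted here: Dnmt1, Uhrf1 and Hells, which act in the maintenance of methylation, Dnmt3a, Dnmt3b and Dnmt3l, which set it anew, and Tet1 and Tet2, which oxidise it. They were chosen by function, with earlier results of these data known. Their transcription was read from nascent RNA of V6.5 embryonic stem (ES) cells, as reads on the sense strand of each gene's span in RefSeq on GRCm38. A span runs from the first annotated start to the last annotated end. The first 500 bp of a span are called its promoter here, and the span without its first and last 500 bp is called its body.

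V6.5 is 1 mouse ES cell line from the inner cell mass of an embryo of a C57BL/6 and 129/sv cross, and all samples were untreated cells grown in serum with leukaemia inhibitory factor on gelatin. In each assay, engaged polymerases were made to run on with propargyl-modified nucleotides, and the labelled RNA was captured by click chemistry. In scGRO-seq, single nuclei were sorted into the wells of 96-well plates, and each cell received a barcode. Here 35 scGRO-seq plates with 2518 kept cells were summed into 10 batches. In inAGTuC, of which 4 libraries were used, the run-on was done in intact nuclei that were handled in groups. In AGTuC, of which 2 libraries were used, it was done on nuclei in bulk with a higher concentration of the detergent sarkosyl, which breaks the nuclear membrane. Both AGTuC libraries were of 1 batch, so that assay and batch cannot be told apart in any comparison with AGTuC. They differed by 1.14 in chi-square per degree of freedom over 12558 genes, near to sampling noise, whereas the 2 inAGTuC libraries of Exp208 differed by 5.25. The inAGTuC library of Exp261 (c16) is also listed as a scGRO-seq plate of the same name, with 1526599 and 1526591 reads and 99.7% of molecules shared. The copy labelled scGRO-seq was left out, which of the 2 labels holds was not tested, and results that rest on this library are also given without it. In the bulk libraries, fewer cells that transcribe a gene and less transcription per cell cannot be told apart.

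A sample held 223119 to 4928371 reads. All 8 ES cell markers looked for (Pou5f1, Nanog, Sox2, Klf4, Esrrb, Zfp42, Tdgf1 and Lin28a) had reads in each assay, with 657 to 1721 summed span reads per 1000000 scaled body reads in the scGRO-seq batches and 2058 to 2106 in AGTuC. The summed fibroblast markers gave 28.7 to 124 per 1000000 in scGRO-seq and 10.8 to 15.1 in AGTuC, where Col1a2, Col3a1 and Postn were at 0. The 4 endoderm markers gave 21.5 to 139 and 34.7 to 38, and the 4 neural markers 24.9 to 72.6 and 142 to 149, in the same order. Per kb, single neural markers in AGTuC ran from 0.00846 to 24.1 with a median of 2.77, so their sum does not speak for each marker. The part of these cell types in the results was not tested. Reads on the opposite strand of the members made up 6.31% to 7.19% of their reads in AGTuC, 11% (Exp264a) to 30.9% (Exp236) in the scGRO-seq batches and 12.7% to 51.2% in inAGTuC, the highest in the Exp234 library. A fit of body levels without the 2 samples with most antisense reads was run as an alternative. Beyond that, the part of these antisense reads in the results below was not tested.

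Methylation of cytosine in CpG dinucleotides is copied after each round of replication and is set anew in the early embryo. The copying enzyme DNMT1 is guided by UHRF1, which binds hemimethylated CpG and histone H3, and HELLS (also called LSH) is a chromatin remodeller that opens nucleosomes to methylation. DNMT3A and DNMT3B are the de novo methyltransferases, and DNMT3L is their catalytically inactive partner that is well known from germ cells and ES cells. The TET enzymes oxidise 5-methylcytosine to 5-hydroxymethylcytosine and further, and Tet1 and Tet2 are the forms known to be active in ES cells.

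The sequence around 1 annotated start is shown for 7 members, because the promoter comparison turns on which annotated start is used. Each run holds the 200 bases before the start and the 30 bases after it, from RefSeq on GRCm38, 5′ to 3′ on the gene's strand. For Dnmt1, Uhrf1 and Dnmt3l this is the second annotated start and for Dnmt3a the third, which is called the internal start below. For Hells, Dnmt3b and Tet1 it is the start of the span. The runs lie at chr9:20952950-20953179 on the minus strand (Dnmt1), chr17:56304113-56304342 plus (Uhrf1), chr19:38930790-38931019 plus (Hells), chr12:3891544-3891773 plus (Dnmt3a), chr2:153649249-153649478 plus (Dnmt3b), chr10:78049642-78049871 plus (Dnmt3l) and chr10:62887295-62887524 minus (Tet1). Capitals mark matches on either strand to the motifs searched.
Dnmt1: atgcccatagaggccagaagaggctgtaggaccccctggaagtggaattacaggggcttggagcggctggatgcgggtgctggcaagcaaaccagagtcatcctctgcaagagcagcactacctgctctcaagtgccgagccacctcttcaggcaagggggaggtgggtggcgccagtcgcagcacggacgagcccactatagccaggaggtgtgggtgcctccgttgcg
Uhrf1: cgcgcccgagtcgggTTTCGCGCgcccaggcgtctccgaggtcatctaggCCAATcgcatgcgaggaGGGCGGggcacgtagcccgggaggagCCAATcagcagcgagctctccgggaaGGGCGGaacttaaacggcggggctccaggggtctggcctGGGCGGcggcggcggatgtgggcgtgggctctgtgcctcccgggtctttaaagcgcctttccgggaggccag
Hells: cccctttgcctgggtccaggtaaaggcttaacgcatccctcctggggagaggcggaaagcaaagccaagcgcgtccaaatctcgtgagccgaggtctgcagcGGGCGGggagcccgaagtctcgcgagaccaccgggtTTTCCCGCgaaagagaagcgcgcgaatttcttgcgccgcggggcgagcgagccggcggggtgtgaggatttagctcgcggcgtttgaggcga
Dnmt3a: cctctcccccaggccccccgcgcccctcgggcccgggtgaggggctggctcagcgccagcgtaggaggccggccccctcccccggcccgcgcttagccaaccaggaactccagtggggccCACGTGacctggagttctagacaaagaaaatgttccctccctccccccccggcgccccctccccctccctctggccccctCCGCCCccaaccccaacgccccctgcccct
Dnmt3b: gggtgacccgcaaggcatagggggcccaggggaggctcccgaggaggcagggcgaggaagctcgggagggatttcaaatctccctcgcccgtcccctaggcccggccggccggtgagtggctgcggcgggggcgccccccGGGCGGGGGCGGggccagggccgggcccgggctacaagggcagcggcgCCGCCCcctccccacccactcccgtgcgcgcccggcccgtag
Dnmt3l: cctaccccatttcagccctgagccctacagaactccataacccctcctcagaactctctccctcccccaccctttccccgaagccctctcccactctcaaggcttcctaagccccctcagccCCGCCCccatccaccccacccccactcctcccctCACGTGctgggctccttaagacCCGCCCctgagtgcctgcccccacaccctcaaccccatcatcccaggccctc
Tet1: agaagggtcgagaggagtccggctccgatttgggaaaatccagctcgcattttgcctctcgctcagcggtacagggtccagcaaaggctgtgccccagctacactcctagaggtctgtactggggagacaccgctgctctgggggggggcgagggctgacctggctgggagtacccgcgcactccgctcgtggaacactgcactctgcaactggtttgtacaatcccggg
The motifs were TTTCCCGC, TTTCGCGC, TTTGCCGC and TTTGGCGC for E2F, GGGCGG for Sp1, CCAAT for NFY, CACGTG for the E box and TATAAA for TATA. They were sought on both strands from 250 bases before to 50 bases after each start, and overlapping matches were counted separately. The start of Dnmt3l 7672 bp into its span was not searched. An E2F word was found at the internal start of Uhrf1 and at the start of Hells, whereas 2.26% of 32851 mouse promoters of this length held one. The third annotated start of Dnmt1, which lies 7265 bp into the span, had 2 E2F, 2 Sp1 and 3 CCAAT words. The second start, 6909 bp into the span, had none of the 5 motifs. An E box was found before the internal starts of Dnmt3a and Dnmt3l, against 7.15% of all promoters. Sp1 words, held by 35.7% of all promoters, were found 3 times at the internal start of Uhrf1, 4 times at Dnmt3b, 2 times each at the internal starts of Dnmt3a and Dnmt3l and once each at Hells, Tet1 and Tet2. The first and second annotated starts of Dnmt3a held more, with 6 and 7, and the span starts of Uhrf1 and Dnmt3l held 1 each. CCAAT, in 37.4% of all promoters, was found 2 times at the internal start of Uhrf1, 3 times at its span start and 5 times at the span start of Dnmt1. TATAAA, in 13.6% of all promoters, was at none of the starts searched. The windows held between 2 (span start of Dnmt1) and 57 (Tet2) CG dinucleotides, with 34 at Hells and 33 at the internal start of Uhrf1. These matches describe the letters alone.

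Transcription of the members was well above that of a typical gene in the scGRO-seq cells, with 1 exception. Levels are given as scaled RPKM, the sense reads of the body per kb of body and per 1000000 body reads, where the total of body reads is scaled by the median of ratios between samples. The mean level over batches was 8.97 ± 2.77 for Tet1, 6.91 ± 2.08 for Hells, 5.81 ± 2.49 for Uhrf1 and 4.03 ± 1.20 for Dnmt1 (SD, n = 10 batches). It was 3.93 ± 2.02 for Dnmt3b, 3.54 ± 1.53 for Tet2, 2.73 ± 1.79 for Dnmt3l and 1.44 ± 0.296 for Dnmt3a (SD, n = 10 batches). Tet1 lay above 98.3% of 14814 genes, Hells above 97.3% and Uhrf1 above 96.4%, and Dnmt3a, with 58.5% of genes below it, was the exception. This exception depends on the start used. With the body taken from its internal start, chosen after seeing the data, Dnmt3a had a mean of 2.92 (1.65 to 4.69 over batches). Its rank among genes from that start is not given. In AGTuC, Dnmt3b and Dnmt3l lay above 48.2% and 34.4% of genes only, while Uhrf1 lay above 96.0%.

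The order of the members by their geometric mean over batches was Tet1 (8.65), Hells (6.63), Uhrf1 (5.47), Dnmt1 (3.88), Dnmt3b (3.47), Tet2 (3.31), Dnmt3l (2.06) and Dnmt3a (1.41). This order rests on bodies of whole spans. From the internal start, arithmetic means were 5.79 for Uhrf1, 4.50 for Dnmt1, 3.77 for Dnmt3l and 2.92 for Dnmt3a. Dnmt3l then lay above Tet2, whose arithmetic mean was 3.54. The tests below use the whole-span order. The difference between each of the 7 pairs of neighbours was tested within batches by an exact two-sided sign-flip permutation test on log2(level + 0.1). Uhrf1 was above Dnmt1 by 0.49 on the log2 scale and in 9 of 10 batches (adjusted p = 0.041 over the 7 pairs, exact permutation test). Tet1 was above Hells by 0.38 in 7 of 10 batches (p = 0.035, adjusted p = 0.12, exact permutation test). The other neighbours did not differ beyond the spread over batches, with adjusted p from 0.12 to 0.87 including Tet1 and Hells. The call for Uhrf1 over Dnmt1 was lost when any batch but Exp208 was left out, with adjusted p of 0.055 to 0.082 in this exact permutation test. The difference without 1 of those batches was 0.33 (without Exp160) to 0.54.

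**Figure D1:**
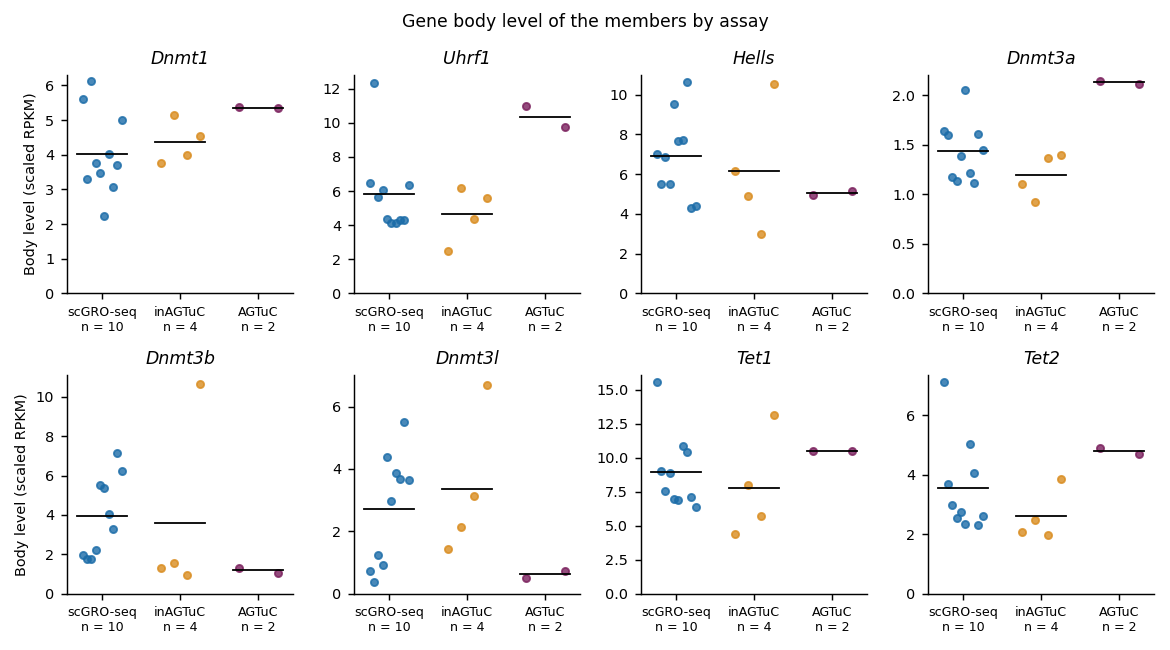
Body level of the 8 members in scaled RPKM (y axes start at 0), with 1 point per scGRO-seq batch, inAGTuC library or AGTuC library and a line at the mean of each assay. AGTuC points of Uhrf1 (10.97 and 9.76) lie above all scGRO-seq batches but Exp160, and AGTuC points of Dnmt3b and Dnmt3l lie at the foot of their panels.

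Among the maintenance genes, Uhrf1 was lower in scGRO-seq than in AGTuC, and Dnmt1 and Hells did not pass the test. The level of Uhrf1 ran from 4.12 (Exp246) through a median of 5.01 to 12.3 (Exp160) over the batches, and was 10.97 and 9.76 in AGTuC and 2.49, 6.16, 4.37 and 5.61 in inAGTuC. All batches but Exp160 lay below both AGTuC libraries. The difference from AGTuC was -0.98 ± 0.256 on the log2 scale (SE; adjusted p = 0.00439, limma). Dnmt1 ran from 2.24 (Exp246) through 3.73 to 6.12 (Exp208), beside 5.36 and 5.35 in AGTuC and 3.77, 5.14, 4.00 and 4.53 in inAGTuC. Batches lay on both sides of AGTuC, and the difference of -0.48 ± 0.229 had an adjusted p of 0.0899 (limma). Hells ran from 4.28 (Exp263) through 6.94 to 10.6 (Exp260b), beside 4.96 and 5.13 in AGTuC and 6.18, 4.88, 2.97 and 10.5 in inAGTuC. Most batches of Hells lay above AGTuC, with a difference of 0.46 ± 0.325 (adjusted p = 0.258, limma).

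Among the de novo genes, Dnmt3b and Dnmt3l were higher in scGRO-seq than in AGTuC and Dnmt3a was lower. Dnmt3b ran from 1.78 (Exp160) through 3.67 to 7.17 (Exp263), and was 1.33 and 1.04 in AGTuC and 1.28, 1.58, 0.945 and 10.6 in inAGTuC. All 10 batches lay above both AGTuC libraries, and the log2 difference was 1.73 ± 0.579 (adjusted p = 0.0195, limma). Dnmt3l, at 0.494 and 0.744 in AGTuC, ran from 0.363 (Exp160) through 3.31 to 5.52 (Exp263) in scGRO-seq and was 1.45, 2.13, 3.14 and 6.70 in inAGTuC. The groups overlapped at Exp156 and Exp160, which held 2 reads and 1 read of Dnmt3l, and the log2 difference was 2.13 ± 0.602 (adjusted p = 0.00729, limma). Dnmt3a, at 2.15 and 2.12 in AGTuC, ran from 1.12 (Exp260b) through 1.42 to 2.05 (Exp246) and was 1.10, 0.924, 1.36 and 1.40 in inAGTuC. All batches of Dnmt3a lay below AGTuC, with a log2 difference of -0.60 ± 0.201 (adjusted p = 0.0195, limma).

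Neither TET gene passed this test. Tet1 ran from 6.35 (Exp264a) through 8.21 to 15.5 (Exp156), beside 10.50 and 10.52 in AGTuC and 4.36, 8.01, 5.71 and 13.1 in inAGTuC. The batches lay on both sides of AGTuC, and the log2 difference was -0.31 ± 0.275 (adjusted p = 0.369, limma). Tet2 ran from 2.32 (Exp263) through 2.85 to 7.11 (Exp156), beside 4.91 and 4.69 in AGTuC and 2.07, 2.47, 1.99 and 3.87 in inAGTuC. Its log2 difference was -0.58 ± 0.271 (adjusted p = 0.0873, limma).

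In all, 4 of 8 members differed from AGTuC, a share near the 46% of 14830 genes that did. Of the members 2 were higher in scGRO-seq, beside 25.5% of all genes, and 2 were lower, beside 20.5%. Without either AGTuC library (c01 or c02) none of the 8 members passed, with log2 differences of -0.90 and -1.05 for Uhrf1 (adjusted p of up to 0.060), 1.89 and 2.46 for Dnmt3l (up to 0.081), -0.60 and -0.60 for Dnmt3a (up to 0.15) and 1.87 and 1.52 for Dnmt3b (up to 0.19; limma). With both summed as 1 sample, Uhrf1 (-0.95, adjusted p = 0.036) and Dnmt3l (2.07, 0.028) passed, and Dnmt3a (-0.60, 0.093) and Dnmt3b (1.76, 0.072) did not. In these 3 fits AGTuC is 1 sample, which is assumed to vary like the samples of the other assays. Scaling by total body reads brought the median log2 difference of all genes from 0.02 to -0.35 and turned the split of called genes from 3787 higher and 3033 lower to 2957 higher and 4748 lower. The signs of the 8 members did not turn under that scaling, and 7 passed. With limma trend, Dnmt3l alone passed (adjusted p = 0.028). With reads within 50 bp on a strand counted once, Dnmt3l (adjusted p = 0.036) and Tet1 (0.030) passed, and the signs of Uhrf1 (0.17), Dnmt1 (0.048) and Tet1 (0.93) turned. With the body taken from the internal start, an alternative chosen after seeing the data, the log2 differences were -0.66 for Uhrf1 (adjusted p = 0.043), -0.99 for Dnmt3a (0.0018), 2.21 for Dnmt3l (0.011) and -0.46 for Dnmt1 (0.12; limma).

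Against inAGTuC, 0 of 8 members and 0% of 14830 genes passed the test, with 704 genes at an unadjusted p under 0.05 and none called by limma trend either. The members' log2 differences ran from -0.19 (Dnmt1) to 0.66 (Dnmt3b), with adjusted p of 0.93 to 0.97 (limma). Both comparisons share the scGRO-seq batches. Without the inAGTuC library listed under both assays, 0 of 8 members and 4 of 14641 genes passed, with 1881 at an unadjusted p under 0.05. The log2 difference then was 1.61 for Dnmt3b (adjusted p = 0.15), which stood at 10.6 in that library, 0.67 for Hells (0.33), 0.50 for Tet1 (0.37) and 0.33 for Dnmt3l (0.84; limma). The batch Exp208 was made in both assays, which allows a comparison within 1 batch. There, the log2 of the scGRO-seq level over the mean of the 2 inAGTuC libraries lay between 0.21 (Dnmt3a) and 0.46 (Dnmt1) for 7 members and was -0.54 for Dnmt3l, with 1 scGRO-seq value and no test.

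**Figure D2:**
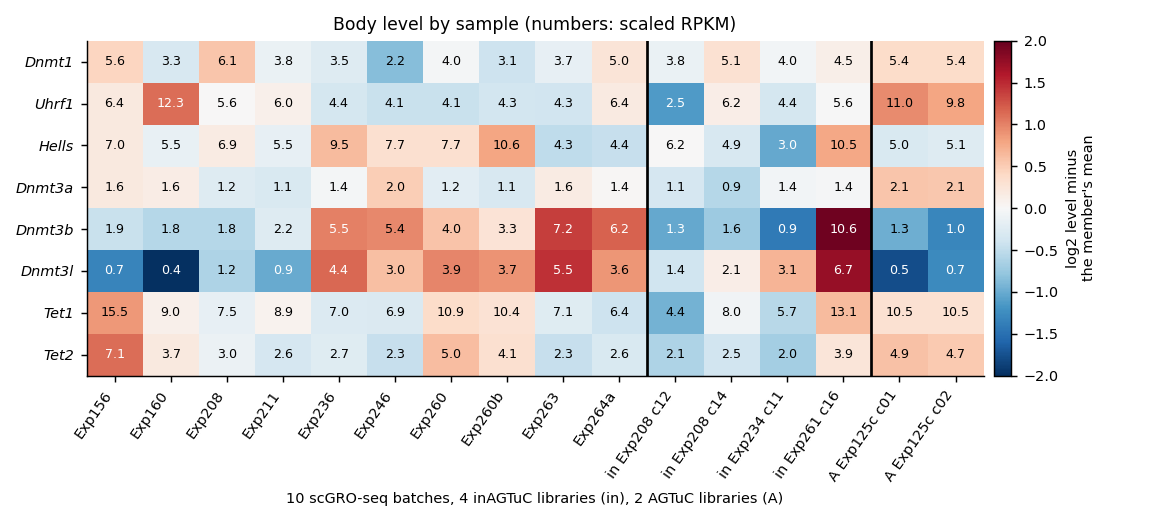
Body level of each member (rows) in each of the 16 samples (columns), with the numbers giving scaled RPKM and the colour giving log2(level + 0.1) minus the member's mean over samples. Dnmt3b and Dnmt3l are low (blue) in Exp156, Exp160, Exp208, Exp211 and AGTuC and high (red) in Exp263 and in the inAGTuC library of Exp261.

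The members also differed between scGRO-seq batches. With the 35 plates as replicates, 6 of 8 members differed over the 10 batches, beside 28% of 11730 genes (F test, limma). These were Tet1 (F = 7.84, adjusted p = 4.5e-05), Tet2 (5.28, 0.0012), Dnmt1 (4.21, 0.0055), Dnmt3l (4.06, 0.0068), Hells (3.42, 0.0176) and Uhrf1 (3.11, 0.0279). Dnmt3b had an adjusted p of 0.0585 and Dnmt3a one of 0.445. Marker sums differed between the batches too: Exp156 held the highest sum of ES cell markers (1721, beside a median of 954), and Exp263, with the highest level of Dnmt3b and Dnmt3l, held the lowest (657) and the highest sums of endoderm (139) and neural markers (72.6). These sums do not speak for each marker, and their part in the batch differences was not tested. Single batches carried some of these calls. Without Exp156, which held the highest level of both TET genes, Tet2 no longer passed (F = 1.47, adjusted p = 0.344) and Tet1 had an F of 2.98 (adjusted p = 0.0426). Without Exp160, Uhrf1 fell out (F = 1.28, adjusted p = 0.422), as it did without Exp236 (adjusted p = 0.0710). Hells did so without Exp260b, Exp263 or Exp264a (adjusted p of 0.0595 to 0.0736). Without Exp236, which alone held 10 plates, the number of genes called fell from 3290 to 1348.

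Dnmt3b and Dnmt3l had the same 4 lowest batches, a pattern picked out after seeing the levels and not tested. How many other genes or pairs of members share their lowest batches is not given. Dnmt3b itself did not pass the test between batches (adjusted p = 0.0585, F test, limma). In Exp156, Exp160, Exp208 and Exp211, Dnmt3b stood at 1.95, 1.78, 1.79 and 2.24, and Dnmt3l at 0.714, 0.363, 1.23 and 0.911. In the other 6 batches, Dnmt3b stood at 3.30 to 7.17 and Dnmt3l at 2.97 to 5.52. In inAGTuC, Dnmt3b stood at 1.28 and 1.58 in the libraries of Exp208 and at 0.945 in that of Exp234, and Dnmt3l at 1.45 and 2.13 and at 3.14, so that the genes parted in the Exp234 library. No such pattern was seen for Dnmt3a, whose batches all lay between 1.12 and 2.05. These 4 batches held 1 to 18 body reads of each of the 2 genes, so that each level has a wide counting error.

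The promoter share gave the widest differences between the assays, and Hells the widest of all members tested. The promoter held 24.5% (240 reads; Wilson 95% interval 21.9% to 27.3%) of the promoter and body reads of Hells in AGTuC and 2.60% (39 reads; 1.91% to 3.53%) in scGRO-seq. Such intervals cover counting error only. By sample, the share was 23.4% and 25.1% in the AGTuC libraries and at most 10.0% in a scGRO-seq batch (Exp264a, 6 of 60 reads), with no overlap. The log2 difference between promoter and body was -3.50 ± 0.456 (SE; adjusted p = 5.2e-08, limma diffSplice). In AGTuC 126 of the promoter reads lay in the first 50 bp, and none of the scGRO-seq bins near the start held more than 14 reads.

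Dnmt3b and Tet1 were the other members whose promoter differed. The promoter share of Dnmt3b was 13.5% and 18.6% in the AGTuC libraries and at most 5.88% in a batch (Exp208), with a log2 difference of -3.01 ± 0.695 (adjusted p = 2.7e-04, limma diffSplice). The inAGTuC library of Exp234, which holds the highest antisense share, gave 23.8% for Dnmt3b from 5 promoter reads. The promoter share of Tet1 was low in each assay, at 3.30% and 3.00% in AGTuC and at most 0.800% in a batch, and its log2 difference was -2.72 ± 0.539 (adjusted p = 4.3e-05). For Tet1, sense reads also preceded the RefSeq start: 70 in the 500 bp before it and 110 in the 500 bp after it in AGTuC, beside 23 and 8 in scGRO-seq.

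The remaining members did not pass, or had too few reads at the start of the span. The promoter share of Uhrf1 was 3.83% in scGRO-seq and 6.48% in AGTuC, with a log2 difference of -0.61 (adjusted p = 0.24), and that of Dnmt3a was 0.563% and 2.26%, with -0.65 (adjusted p = 0.27). Tet2 was at 1.90% and 1.68%, a log2 difference of 0.20 (adjusted p = 0.80; limma diffSplice for these 3). Dnmt1 had 0 promoter reads against 918 body reads in scGRO-seq, which allows a share of up to 0.417% (Wilson), and 1 read in AGTuC, and it was not tested. Dnmt3l, with 5 reads and 1 read, was not tested either. In all, 3 of the 6 members tested differed, against 75% of 10085 genes, of which 7528 had a lower and 36 a higher promoter in scGRO-seq. The median log2 difference over all genes was -2.31. The 3 member calls held with any batch or AGTuC library left out. With reads within 50 bp on a strand counted once, which leaves at most 1 read per stretch in the libraries without cell barcodes, no member passed, Hells turned to 2.17 (adjusted p = 0.18), Dnmt3b was at -0.56 (0.72) and Tet1 had too few reads (limma diffSplice).

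Read density before and after an internal start was compared for the 4 members that have one more than 500 bp into the span, as a description. Between the span start and the internal start of Dnmt1 there were 2.88 reads per kb in scGRO-seq and 0.338 in AGTuC, and after it there were 19.8 and 23.4. The density of Dnmt3a went from 4.72 to 14.1 reads per kb in scGRO-seq and from 4.33 to 23.3 in AGTuC at its internal start, 84764 bp into the span. That of Dnmt3l went from 3.20 to 23.2 in scGRO-seq and from 1.53 to 3.29 in AGTuC. Uhrf1 differed, with 127 reads per kb in AGTuC before the internal start, 976 bp into the span, and 33.1 after it, so that both starts lay in dense reads. Its value before the internal start covers the whole stretch, with the reads just after the span start. For Dnmt1, Dnmt3a and Dnmt3l, 500 bp were left off each end of that stretch, so the values are not alike in measure. Antisense reads in the 500 bp upstream, the divergent transcription that commonly flanks an active start, numbered 88 at the internal start of Dnmt1 in AGTuC and 0 at its span start. They numbered 47 and 14 at the internal and span start of Uhrf1, 26 and 2 at those of Dnmt3a, and 15 and 0 at those of Dnmt3l.

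With the promoter set at the internal start, an alternative chosen after seeing the data, 5 of 8 members differed, beside 75% of 10087 genes. The share for Uhrf1 was 1.80% in scGRO-seq and 15.2% in AGTuC, a log2 difference of -2.52 (adjusted p = 1.5e-04). For Dnmt1 it was 1.67% (15 reads) and 5.33% (59 reads), a log2 difference of -1.18 (adjusted p = 0.048). By sample the groups overlapped for Dnmt1, with 3.35% and 6.28% in the AGTuC libraries and 0% to 4.35% (Exp160) in the batches. For Dnmt3a the shares were 1.93% and 6.48% (adjusted p = 0.16). Dnmt3l went the other way, with 12.4% (42 reads) and 4.55% (2 reads), a log2 difference of 0.73 that did not pass (adjusted p = 0.54; limma diffSplice for these 4).

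**Figure D3:**
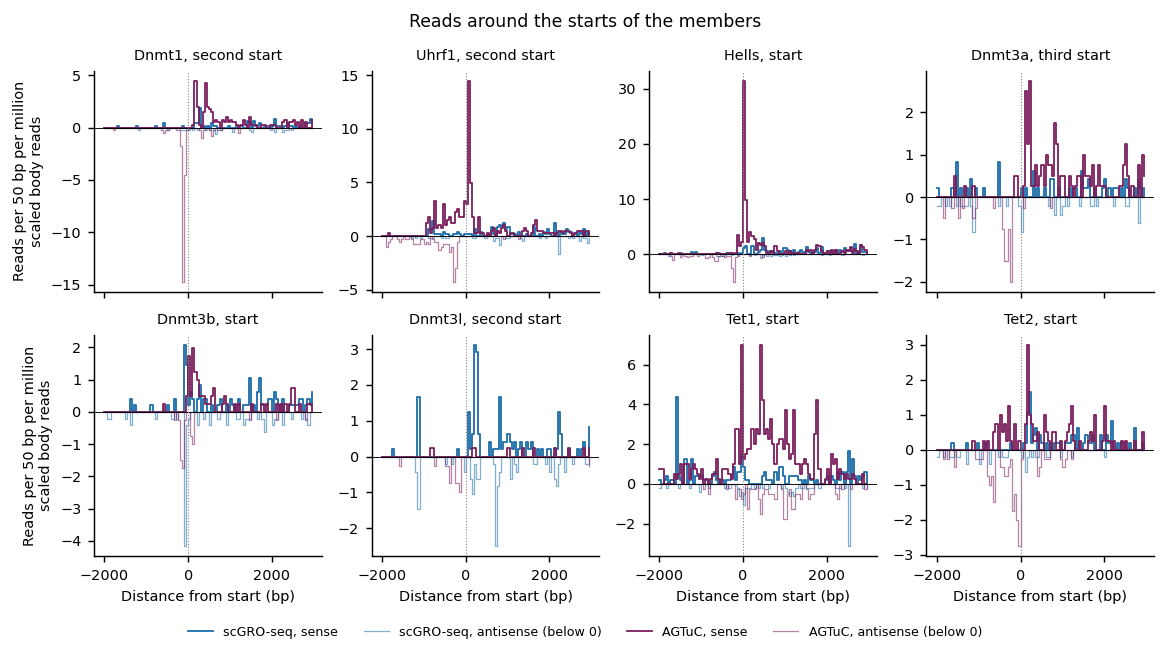
Sense reads (above 0) and antisense reads (below 0) in 50 bp bins from 2000 bp before to 3000 bp after a start of each member, per 1000000 scaled body reads, summed over the 10 scGRO-seq batches (blue) and the 2 AGTuC libraries (purple). AGTuC peaks just after the starts of Hells and Uhrf1. For Dnmt1, drawn from its second start at 6909 bp, the highest AGTuC body bin lies at 7300 bp, past the third start at 7265 bp. Antisense reads lie upstream in these 3 panels, and scGRO-seq shows no peak of like height there.

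**Figure D4:**
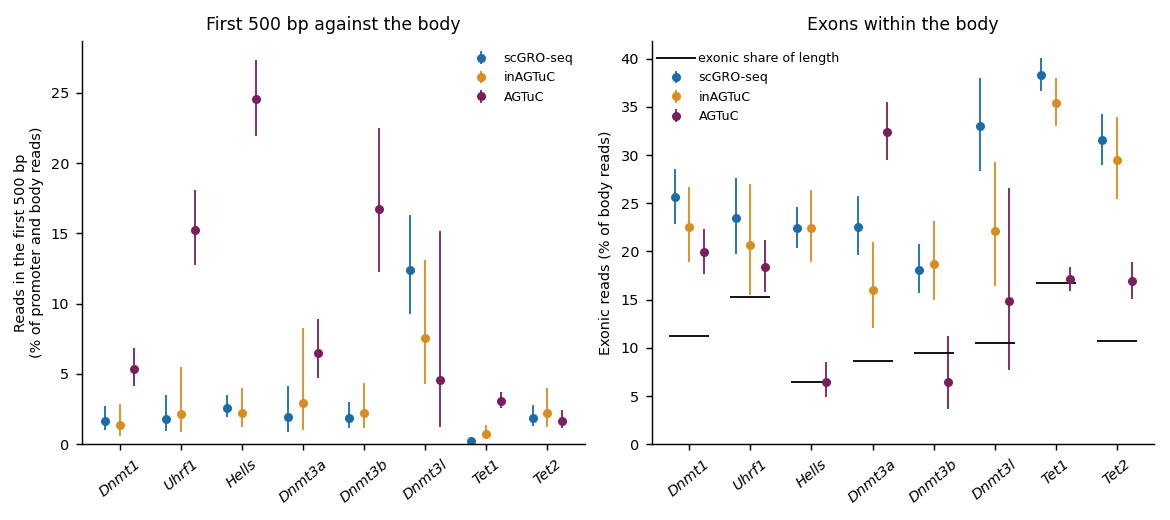
Left, reads in the first 500 bp as a percent of promoter and body reads, from the internal start for Dnmt1, Uhrf1, Dnmt3a and Dnmt3l. Right, exonic reads as a percent of body reads, with the exonic percent of the body's length as a black line. Bars are Wilson 95% intervals over pooled reads. Hells stands at 24.5% in AGTuC and 2.60% in scGRO-seq on the left, and at 6.50% and 22.5% on the right.

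Within the body, the reads of most members lay in exons more often in the single-cell and intact-nuclei assays. For Hells 22.5% of body reads in scGRO-seq, 22.4% in inAGTuC and 6.50% in AGTuC were exonic, where exons make up 6.43% of the length. Exonic shares of Hells were 11.1% to 33.3% over the batches and 6.34% and 6.87% in the AGTuC libraries. Those of Tet1 were 38.3%, 35.4% and 17.1% in the same order, with batches from 28.2% to 46.6% and exons at 16.8% of the length. Dnmt3b had 18.1%, 18.7% and 6.51%, and Tet2 had 31.6%, 29.5% and 16.9%. Dnmt3a was the only member with a lower exonic share in scGRO-seq (22.5%) than in AGTuC (32.4%). The batches of Hells, Tet1 and Tet2 did not overlap with AGTuC, and the share of all genes without such overlap is not given here. Over 7034 genes with enough reads in each assay the median share was 14.2% in scGRO-seq, 13.3% in inAGTuC and 9.80% in AGTuC, with 71.5% of genes higher in scGRO-seq than in AGTuC. Without the library listed under both assays, the inAGTuC share was 15.0% for Hells, 32.9% for Tet1, 20.3% for Dnmt3b and 28.6% for Tet2. These shares are descriptions, and the part of processed RNA in the levels was not tested.

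No 50 bp bin held more than 4.71% of the scGRO-seq body reads of a member. The 50 bp bin with most scGRO-seq reads held 42 reads from 41 cells in 5 batches for Hells (2.87% of body reads, in an exon), 41 reads from 41 cells in 6 batches for Tet1 (1.30%, in an intron) and 23 reads from 23 cells in 3 batches for Tet2 (1.93%, in an exon). The highest share was in Dnmt3l, whose bin held 17 reads from 17 cells in 2 batches (4.71%). The highest bin of Uhrf1 held 13 reads from 6 cells in 5 batches (2.88%, in an intron). With the body cut into 4 equal parts, Dnmt3a had 49.3% of scGRO-seq and 62.1% of AGTuC reads in the last part, which begins before its internal start and runs past it. Dnmt3l had 3.32% of scGRO-seq reads in the first part. Hells had 26.8%, 28.8%, 27.1% and 17.3% over the 4 parts, the least in the last.

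In single cells, reads were counted in a 10 kb window after the first 500 bp. Molecules shared between libraries were left out, and the counts depend on this. With all deposited reads, where kept cells can differ too, 190 cells held 2 or more window reads of Tet1, beside 70 here. For Hells there were 150 beside 60. Tet1 had a window read in 475 of 2518 cells (18.9%; Wilson 95% interval 17.4% to 20.4%), Hells in 346 (13.7%), Uhrf1 in 232 (9.21%) and Dnmt3b in 196 (7.78%). Tet2 (123 cells, 4.88%), Dnmt3l (109, 4.33%), Dnmt1 (97, 3.85%) and Dnmt3a (69, 2.74%) followed. By the median over batches the order of the last 4 was Dnmt1 (3.42%), Tet2 (2.95%), Dnmt3a (2.242%) and Dnmt3l (2.239%). The windows of Dnmt1, Dnmt3a and Dnmt3l start at the span start and lie before or across the internal start. On the antisense strand of the same windows, which can hold transcription of its own (such as Aire opposite Dnmt3l), reads were found in 143 cells (5.68%) for Tet1, 79 (3.14%) for Hells, 116 (4.61%) for Uhrf1 and 85 (3.38%) for Dnmt3l. Over pooled cells, the Wilson interval of the sense share of Dnmt3l (3.60% to 5.20%) overlapped with that of its antisense share (2.74% to 4.16%). Such intervals leave out the spread over batches, and both strands were read in the same cells. By batch, the sense share of Dnmt3l ran from 0% to 8.87% (Exp236) and its antisense share from 0% to 6.03% (Exp236). The difference between the strands was not tested. With each cell thinned to 1000 UMIs, the shares were 5.46% for Tet1, 3.28% for Hells, 2.44% for Uhrf1 and 0.626% to 1.86% for the rest.

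These shares varied over batches. For Tet1 they ran from 9.96% (Exp264a) through a median of 19.5% to 32% (Exp156), and for Hells from 3.56% (Exp263) through 10.6% to 23.3% (Exp236). Uhrf1 ran from 3.56% (Exp263) through 8.47% to 17.2% (Exp160). Dnmt3b ran from 0.746% (Exp208) through 4.34% to 15.5% (Exp236), and the highest antisense share of its window was also in Exp236 (7.88%). These shares by batch were not thinned to a like number of reads per cell. Exp236 held 4928371 reads in 812 kept cells, and Exp156 held 223119 in 103. The part of depth in the differences between batches was not tested.

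For no member did the number of cells with repeated reads pass a test against permuted reads. Expected numbers came from permuting the window reads among the cells of each library, and the difference was tested by an exact two-sided sign-flip test over the 10 batches, whose smallest possible p is 0.00195. Hells had 60 cells with 2 or more reads where 53.7 were expected (p = 0.32, exact permutation test). Tet1 had 70 against 65.9 (p = 0.51), Uhrf1 25 against 19.7 (p = 0.42) and Dnmt3b 20 against 17.9 (p = 0.79, exact permutation tests). Dnmt3l had 8 against 4.78, Tet2 6 against 6.07, Dnmt1 4 against 3.58 and Dnmt3a 2 against 1.75 (p from 0.25 to 1, exact permutation tests). These 4 had such cells in 1 (Dnmt3a) to 4 (Dnmt1) of the 10 batches, so that a test over batches could hardly show an excess for them. The same holds for Dnmt3b, whose 20 cells lay in Exp236 (16) and Exp264a (4) alone. The window after the internal start was an alternative chosen after seeing the data. There Dnmt3l had 23 against 17.3 and Dnmt1 10 against 8.47. Dnmt3a had 10 against 7.11 and Uhrf1 28 against 21.6 (p from 0.19 to 0.49 for all of these, exact permutation tests). In the window from the span start, 0 of 8 members and 0% of 5927 genes passed after adjustment. With a smallest p of 0.00195, a gene can pass this adjustment only if many genes reach so low a p together. That no gene passed was thus likely beforehand and says little about any 1 member. Of all genes, 676 had an unadjusted p under 0.05 in this exact permutation test, of which 43 were above expectation. In a sparse gene, batches without such cells all lie at or below expectation. Counts of genes below expectation are thus not a measure of depleted repeated reads. Over all genes tested the median ratio of observed to expected cells was 1.21, or 0.931 with reads of 1 cell within 50 bp counted once. The expected number in that setting did not merge close permuted reads, so 0.931 is biased downward. Without that rule, the members had ratios of 0.989 (Tet2) to 1.67 (Dnmt3l).

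The spacing of repeated reads is given as a description, with no test between members. In 25 of the 70 Tet1 cells the closest pair of reads lay within 50 bp, and the median closest distance was 552 bp. For Hells this held in 5 of 60 cells, with a median of 2164 bp, and 16 cells had reads more than 5000 bp apart. For Uhrf1 it held in 8 of 25 cells. With reads of 1 cell within 50 bp counted once, observed minus expected was -5.23 cells for Tet1. Close permuted reads were not merged in the expected number, which biases this difference downward.

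**Figure D5:**
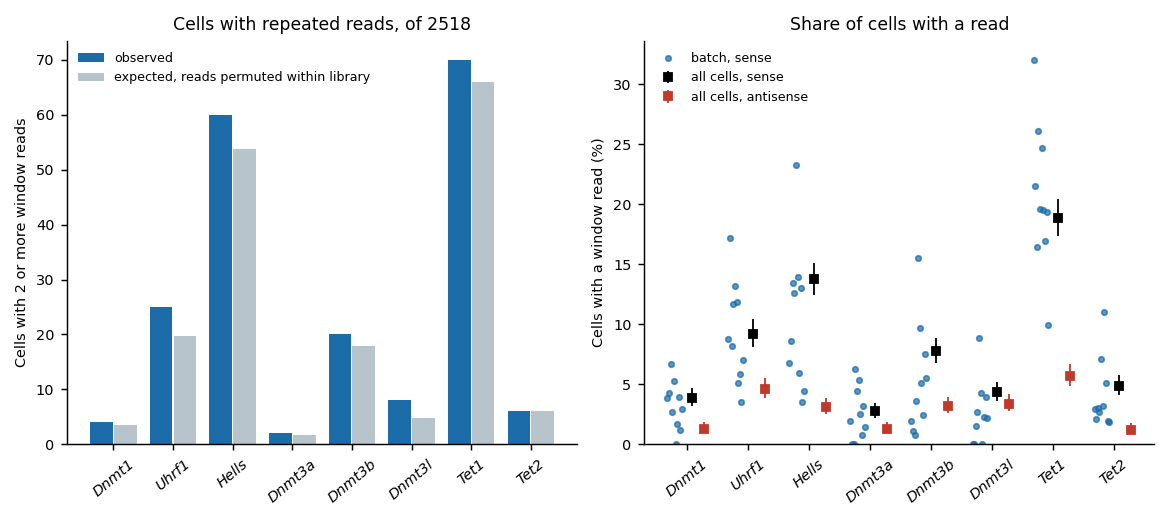
Left, cells with 2 or more window reads observed (blue bars) and expected from reads permuted within libraries (grey bars), of 2518 cells. Right, share of cells with a window read in percent, with 1 blue point per batch and squares with Wilson 95% intervals for all cells on the sense (black) and antisense (red) strand. The intervals leave out the spread over batches. Observed and expected bars stand close together for each member, and Tet1 and Hells have the highest shares.

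Because Dnmt1, Uhrf1 and Hells are known from S phase, their window reads were set against reads on 67 replication-dependent histone genes, found in 1048 of the 2518 cells. Hells was read with a histone gene in 173 cells where 167 were expected (p = 0.29, exact permutation test). Uhrf1 gave 106 against 116 (p = 0.41) and Dnmt1 48 against 50.1 (p = 0.48, exact permutation tests). Tet1 gave 209 against 219 and Tet2 61 against 56.7. After adjustment 0 of 8 members and 0% of 5927 genes passed, with 322 at an unadjusted p under 0.05. The smallest possible p limits this adjustment as it does that for repeated reads, so the lack of calls says little.

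Pairs of members read in the same cell lay on both sides of what permuted reads gave, with ratios of 0.475 to 1.40, as a description without a test. Of 28 pairs, 11 were above expectation and the median ratio was 0.973. Uhrf1 and Hells shared 48 cells against 53.6 expected, and Hells and Tet1 shared 91 against 91.7. Dnmt1 and Tet1 shared 17 against 25.1, and Dnmt3l and Tet1 shared 18 against 26.9. The highest ratio was that of Uhrf1 and Tet2 (25 cells against 17.9, ratio 1.40), the lowest that of Dnmt1 and Dnmt3a (2 against 4.21), and Tet1 and Tet2 shared 43 against 32.3.

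The wider pathway was taken from a list of 28 genes that read, remove, guide or supply methylation. Of 26 with enough body reads, 8 were lower in scGRO-seq than in AGTuC and none was higher, with a median log2 difference of -0.36 beside 0.02 over all genes tested, of which 20.5% were lower and 25.5% higher. These were Mbd3, a subunit of the NuRD complex (-2.37, adjusted p = 5.9e-05), Ahcy, the hydrolase of S-adenosylhomocysteine (-1.65, 3.9e-04), the methyl-CpG readers Zbtb4 (-1.49, 0.0048) and Zbtb38 (-1.02, 0.0285), Pcna, the sliding clamp (-1.13, 0.018), Gadd45a (-1.06, 0.025), Cdca7, a partner of HELLS (-1.03, 0.013), and Trim28, the corepressor that recruits silencing factors (-0.73, 0.032; limma). Against inAGTuC none of the 26 passed, with or without the library listed under both assays (limma, with 4 at an unadjusted p under 0.05 without it).

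At the promoter, 20 of 23 genes of the wider list were lower in scGRO-seq and none was higher, beside 75% of all genes called, and the median was -1.91 beside -2.31 over all genes. The widest were Ehmt1 (-4.80), Mbd2 (-3.39), Cdca7l (-3.04) and Uhrf2 (-3.03). Others included Ehmt2 (-2.53), Mbd4 (-2.30), Trim28 (-2.28), Tdg (-1.96) and Atf7ip (-1.94). Mat2a, Cdca7, Tet3, Zbtb33, Zbtb24, Ahcy, Gadd45a, Pcna, Usp7 and Mbd3 lay between -1.91 and -1.20 (limma diffSplice). Between batches 4 of 24 differed, beside 28% of all genes: Uhrf2, the paralogue of Uhrf1 (F = 15.3, adjusted p = 3.5e-08), Zfp57, which protects imprints (9.19, 9.9e-06), Atf7ip (4.66, 0.0029) and Cdca7l (3.47, 0.016; limma). Trim28 had the highest mean level of the list in scGRO-seq (22.6 scaled RPKM) and Zbtb4 the lowest (0.786).

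The genes most like each member were those with the highest Pearson correlation of log2(body reads per 1000000 + 1) over the 16 samples, among 5555 genes. The samples share libraries, batches and depth with each other, and the values are descriptions. Closest to Hells were Rbm39 (0.931) and Ncor1 (0.915), to Uhrf1 Aen (0.899) and Ints3 (0.895), and to Dnmt1 Prrc2b (0.899) and Dazap1 (0.881). Closest to Dnmt3b were Tesk2 (0.940) and Nexmif (0.933), to Dnmt3l Lyrm4 (0.895) and Peg3 (0.893), and to Dnmt3a Ppia (0.834) and Rps14 (0.820). Closest to Tet1 were Gm21992 (0.932) and Arid1a (0.912), and to Tet2 Kat6b (0.945) and Slc7a7 (0.927). No member was among the 2 closest genes of another. Without the library listed under both assays, over 15 samples, Tet2 was the gene second closest to Tet1 (0.912), and the closest gene changed for Dnmt3b to Mb21d2 (0.945) and for Dnmt3l to Osbpl8 (0.903).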

How the data were processed

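Nascent RNA of V6.5 ES cells was measured by scGRO-seq, inAGTuC and AGTuC. The authors deposited 82 lists of mapped reads on mm10 (the UCSC name of GRCm38), a list for each library, with the position, strand, cell barcode, UMI and mapping quality score of every read. Per the study's methods, adaptors were trimmed with Cutadapt, barcodes split with Flexbar, ribosomal reads removed and the rest mapped with Bowtie2, and duplicates removed by UMI and position with UMI-tools (versions not given in the sources used here). The lists hold no counts per gene, so entries were counted here, and molecules shared between libraries were removed. An entry lies on the strand opposite to the nascent RNA, and entries were turned accordingly.

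Of the lists, 35 scGRO-seq plates of 10 batches, 4 inAGTuC and 2 AGTuC libraries were used. The 10 batches were fixed beforehand, and scGRO-seq lists of other batches were set aside before the thresholds below were applied. Cells were kept at 1000 UMIs and 750 features (RefSeq genes and listed enhancers) or more, and plates at 24 kept cells or more, which left 2518 cells. Of 254 cell barcodes, 226 occur in more than 1 plate, so a cell was named by plate and barcode. Doublets were not called, since wells were sorted with single nuclei. Batches are the replicates of scGRO-seq. Nothing in the labels says that libraries came from separate cultures, so p-values measure the spread between these samples, which may be technical.

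The fits of body reads used R 4.3.3 with limma 3.58.1 (voom, all genes with at least 50 reads, 16 samples, scaling by the median of ratios, a mean per assay), promoter against body rows with diffSplice (genes over 2000 bp with at least 20 reads in each row), and batches with an F test over 35 plates. All adjusted p-values are Benjamini-Hochberg over all genes tested, with a threshold of 0.05. Per-cell tests covered genes over 11 kb with at least 50 window reads. Further steps used Python 3.11.15, numpy 2.4.6, pandas 2.3.3, scipy 1.17.1 and statsmodels 0.14.6, and scripts were checked on simulated data. All members, the 28 wider genes and the marker lists were chosen with earlier results of these data known. Wider genes were named if they passed a test or had the highest or lowest level, except for 1 that is not reported here, and the 2 genes most like a member were taken among those with at least 500 body reads. Alternatives were another scaling, no minimum of reads, limma trend, all deposited reads, all barcodes, a mapping quality of at least 10, near reads (within 50 bp on a strand) counted once, other promoter windows and permutations, and each batch or library left out. Reads of a gene were counted on its strand only, so Dnmt3aos and Aire, which overlap Dnmt3a and Dnmt3l on the other strand, add to their antisense reads.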

Additional observations from a re-analysis of the deposited data

Results flagged for a closer look

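In 3 of the 18 groups of member values checked, 1 sample stood apart by the gap to its nearest neighbour, where chance alone gives about 1 in 20. Uhrf1 stood at 12.3 scaled RPKM in the scGRO-seq batch Exp160, and the next highest batch was at 6.45. Tet1 stood at 15.5 in Exp156, with the next at 10.9. Dnmt3b stood at 10.6 in the inAGTuC library of Exp261, which is also listed as a scGRO-seq plate, with the next of the 4 libraries at 1.58.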

How the results depend on the processing

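The number of members that differ from AGTuC in body level was 4 and became 7 with total scaling, 1 with limma trend, 2 with near reads counted once and 2 with the AGTuC libraries summed, and ran from 0 to 6 with 1 sample left out. With near reads counted once, which in libraries without cell barcodes leaves at most 1 read per stretch, the log2 differences of Dnmt1 (0.048), Uhrf1 (0.17) and Tet1 (0.93) turned. The genes called (6820) became 12288 with no minimum of reads, 4282 with limma trend, 3957 with near reads counted once and 2435 to 7170 with 1 sample left out. Against inAGTuC, Uhrf1 turned with total scaling (-0.0064) and Hells without the 2 samples with most antisense reads (-0.10). With 1 sample left out it ran from -0.050 to 0.29 for Uhrf1, -0.014 to 0.67 for Hells, -0.40 to 0.33 for Dnmt3l and -0.026 to 0.50 for Tet1. Hells passed against AGTuC with all deposited reads (log2 0.82, adjusted p = 0.028). The cause of these changes was not tested.

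The number of members with a different promoter was 3 and became 5 with the first 1000 bp, 5 at the internal start and 0 with near reads counted once, where 1278 genes were tested and 20 passed. Uhrf1 turned with 250 bp on each side of the start (0.28) and near reads counted once (0.61), Hells with near reads counted once (2.17), and Tet2 with 250 bp on each side (-0.080), all deposited reads (-0.62) and a batch left out (-0.050 to 0.63). The count for batches ran from 5 to 7 members with a batch left out. The count of neighbours that differ was 1 and became 0 with all deposited reads or near reads counted once, and 0 to 1 with a batch left out. Dnmt3b over Tet2 turned with all deposited reads (-0.0053) and ran from -0.11 to 0.27 with a batch left out, and Dnmt1 over Dnmt3b from -0.018 to 0.31.

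Cells with 2 or more reads, as observed minus expected, turned with the 5 kb window for Dnmt1 (-0.105), Hells (-0.267), Dnmt3a (-0.172), Dnmt3b (-0.683) and Dnmt3l (-0.0521), and with all deposited reads for Dnmt1 (-2.64), Hells (-5.43), Dnmt3a (-0.737), Tet1 (-5.46) and Tet2 (2.88). In the 5 kb window, Dnmt1, Dnmt3a and Dnmt3l had 0 such cells and too few reads to be tested, so their turn says little. Dnmt3a and Dnmt3l were not tested without Exp236 either. Tet1 turned with reads permuted over all cells (-1.83) or near reads counted once (-5.23), and Tet2 with reads permuted within batches (0.821) or over all cells (0.898). With a batch left out it ran from -0.461 to 1.59 for Dnmt1, -0.621 to 0.545 for Dnmt3a, -0.925 to 2.87 for Dnmt3b and -2.96 to 2.91 for Tet2. Of all genes, 432 passed with reads permuted over all cells, of which 0 were above expectation, and 557 with near reads counted once, of which 1 was above. Since sparse genes fall below expectation in this test, these counts do not show a depletion of repeated reads. With near reads counted once, expected numbers did not merge close permuted reads. This biases observed minus expected downward in that setting, for Tet1 as well. Cells shared with histone genes turned for Dnmt1 (1.25) and Hells (-0.398) with reads permuted over all cells, for Uhrf1 with the 5 kb window (4.43), for Hells (-20.3), Dnmt3a (-3.42) and Tet1 (3.25) with all deposited reads, and for Dnmt3a after the internal start (-4.21). With a batch left out it ran from -0.0592 to 2.31 for Dnmt3a and -7.18 to 0.796 for Dnmt3b. No member passed after adjustment in these per-cell tests under any alternative run. The smallest p of the sign-flip test allows a call only if many genes reach it together. Of 1014 values for single members or pairs, 912 kept their direction and side of the threshold, 34 lost and 19 gained a call, and 49 turned. Alternatives at the internal start, with AGTuC summed and without the samples with most antisense reads were chosen after seeing the data. No paired analysis was possible because, among the samples fitted, Exp208 alone is in both scGRO-seq and inAGTuC and no batch is in both scGRO-seq and AGTuC.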
